A study of Mus musculus with 6 samples.

Results

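The annexin and S100 genes of mouse induced pluripotent stem (iPS) cells were compared between clones made with and without an shRNA against E-cadherin. Members were taken by symbol, as every measured gene named Anxa with a number or S100 followed by a, b, g, p or z. This gave 30 of 19938 measured genes, namely 12 annexins, 17 genes of S100 proteins and S100pbp, which encodes a protein that binds an S100 protein and entered by its name alone. The series held 6 cell lines, each grown from 1 colony of OG2 mouse embryonic fibroblasts (OG2 mice carry a green fluorescent protein reporter driven by Oct4 regulatory sequence). All 6 lines received retroviral Sox2, Klf4, Oct4 and c-Myc. The 3 control clones (2, 3 and 4) also received an shRNA to Luciferase, which mouse cells do not have, and the 3 shECAD clones (4, 8 and 9) one to E-cadherin. Infected cells went onto feeder cells on day 6, colonies were picked on day 14, and the lines were kept on feeders that were removed before RNA was extracted. Each line gave 1 whole-transcript array, so n = 3 clones per group throughout. No label describes separate infections, and the p-values therefore reflect variation among clones only.

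Annexins are proteins that bind acidic membrane lipids when calcium rises, and act in membrane repair, vesicle traffic and the link between membrane and actin. S100 proteins are small calcium sensors of the EF-hand type that work mostly as dimers, and several of them clasp the free end of an annexin: S100A10 pairs with annexin A2, and S100A11 with annexin A1. Both families are abundant in fibroblasts and epithelia, while single members mark other cells, such as S100a8 and S100a9 in neutrophils and S100b in glia.

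Values are log2 expression values, always listed in the order of control clones 2, 3, 4 and shECAD clones 4, 8, 9. The shRNA target Cdh1, which encodes E-cadherin, had log2 values of 9.18, 9.60 and 9.07 in the control group and 6.75, 6.92 and 7.81 in the shECAD group (two-sided exact permutation p = 0.1, the lowest value this design allows). In the limma fit over all genes its log2 fold change was -2.13 ± 0.27 SE (adjusted p = 0.00683). With any 1 clone left out the limma adjusted p of Cdh1 was at most 0.0313. Of 17 measured pluripotency markers, 0 passed the limma test in either direction. At an unadjusted limma p below 0.05, 0 of the 17 were higher and 6 lower, and of all 19938 genes 1786 and 1809. The mean log2 level of the markers lay between 9.34 and 9.52 in control and between 8.82 and 9.31 in shECAD clones. The median of an array lay between 5.11 and 5.30.

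Of the 30 annexin and S100 genes, 7 (23.3%) were higher with E-cadherin knockdown and 0 lower in the limma fit over all genes (adjusted p below 0.05). In that fit 3.12% of all genes passed, 1.9% as higher and 1.23% as lower, or 378 and 245 genes, and after median centring 303 and 377. Those that rose were the annexin genes Anxa1, Anxa2, Anxa3 and Anxa5 and the S100 genes S100a4, S100a10 and S100a11. At an unadjusted p below 0.05, 13 members were higher and 1, S100pbp, was lower. By that threshold 1786 of all genes were higher and 1809 lower. Every shECAD clone lay above every control clone in 16 members, or 53.3%, where 11.1% of all genes did so. The reverse held in 0 members and in 12.5% of all genes. The log2 fold change was above 0 in 25 of 30 members and in 53.7% of all genes. At least 2-fold higher were 5 members and 1.2% of all genes. The median log2 fold change, shECAD minus control, was 0.26 over the members and 0.025 over all genes.

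**Figure D1:**
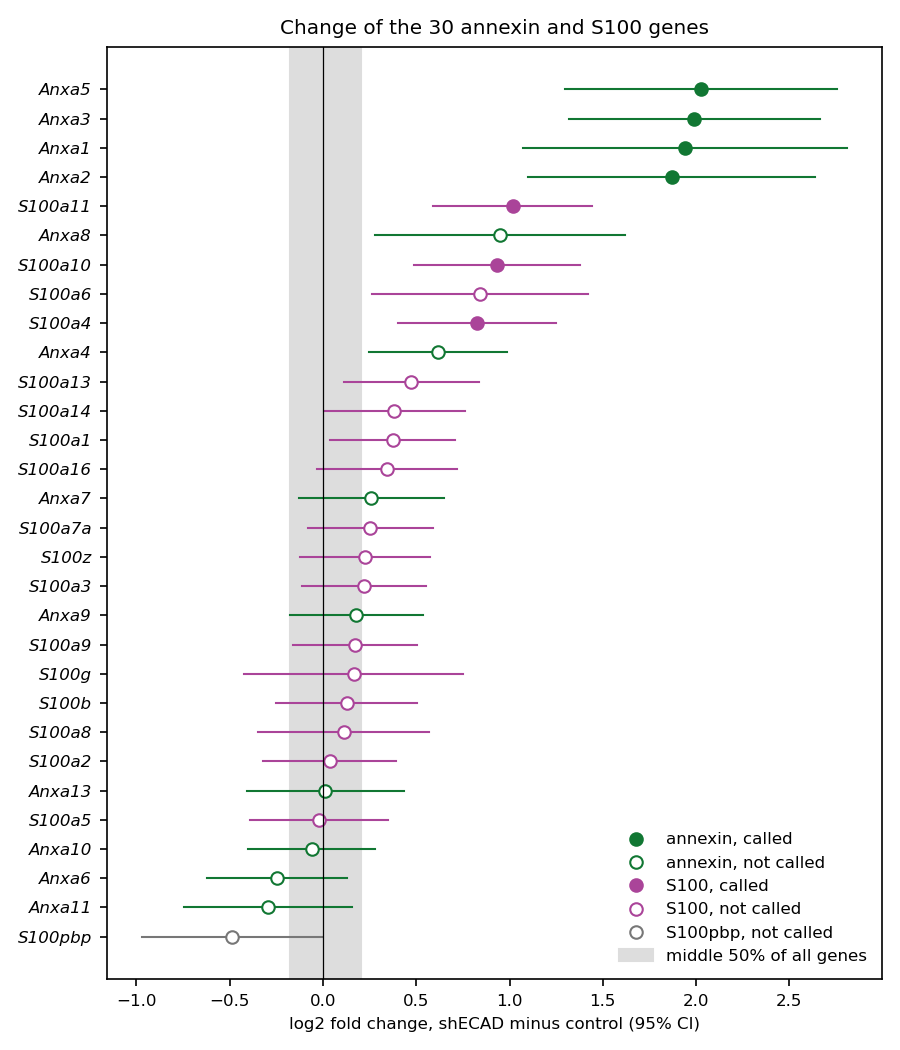
The log2 fold change of each of the 30 genes (x axis, shECAD minus control, with its 95% confidence interval from limma) is plotted by gene, with filled points for an adjusted p below 0.05, and the grey band spans the middle 50% of all genes. Anxa1, Anxa2, Anxa3 and Anxa5 lie between 1.87 and 2.02, apart from the other annexins, which reach 0.95 at most.

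The 4 annexins that rose changed by similar amounts. Anxa5, whose product binds the phosphatidylserine exposed on dying or damaged cells, stood at 8.21, 7.22 and 6.58 in the control group and at 9.38, 9.47 and 9.23 in the shECAD group. The lowest shECAD clone stood 1.01 above the highest control clone. The rise was 4.07-fold (95% interval 2.46 to 6.74, log2 fold change 2.02 ± 0.33 SE, limma adjusted p = 0.0142). Anxa3, the gene of a smaller member of the family found in neutrophils and epithelia, stood at 6.09, 5.48 and 4.61 in the control group and at 7.52, 7.43 and 7.21 in the shECAD group. Here too the groups were apart, by 1.12. The rise was 3.975-fold (2.49 to 6.34, log2 fold change 1.99 ± 0.30, limma adjusted p = 0.012).

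Anxa1, whose glucocorticoid-induced product restrains inflammation through formyl peptide receptors, stood at 8.45, 7.61 and 6.53 in the control group and at 9.56, 9.78 and 9.07 in the shECAD group. Its change was 3.83-fold (2.10 to 7.0, log2 fold change 1.94 ± 0.39 SE, limma adjusted p = 0.0306). Anxa2, which encodes the partner of S100A10 at the plasma membrane, stood at 7.36, 6.46 and 5.67 in the control group and at 8.50, 8.56 and 8.04 in the shECAD group. Its change was 3.65-fold (2.14 to 6.23, log2 fold change 1.87 ± 0.35, limma adjusted p = 0.0238). The groups of both genes were apart, by 0.63 for Anxa1 and 0.68 for Anxa2. In all 4 of these annexins the gap was smaller than the range of the control clones, which was 1.64 for Anxa5, 1.47 for Anxa3, 1.91 for Anxa1 and 1.69 for Anxa2.

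The call of Anxa3 held without any 1 clone and that of Anxa5 without any clone but shECAD clone 8 (limma adjusted p = 0.06). Anxa2 lost its call on leaving out control clone 3 or either of shECAD clones 4 and 8 (adjusted p up to 0.0801), and Anxa1 without control clone 3 or 4 or shECAD clone 4 or 8 (up to 0.099). Anxa1 also lost it with an intensity trend and a robust prior (0.0867), and both did when every probeset was tested. Without variance moderation, which borrows information on the spread from all genes, none of the 30 members was called, and 3 of all genes were (adjusted p from 0.227 to 0.287 for these 4 annexins).

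**Figure D2:**
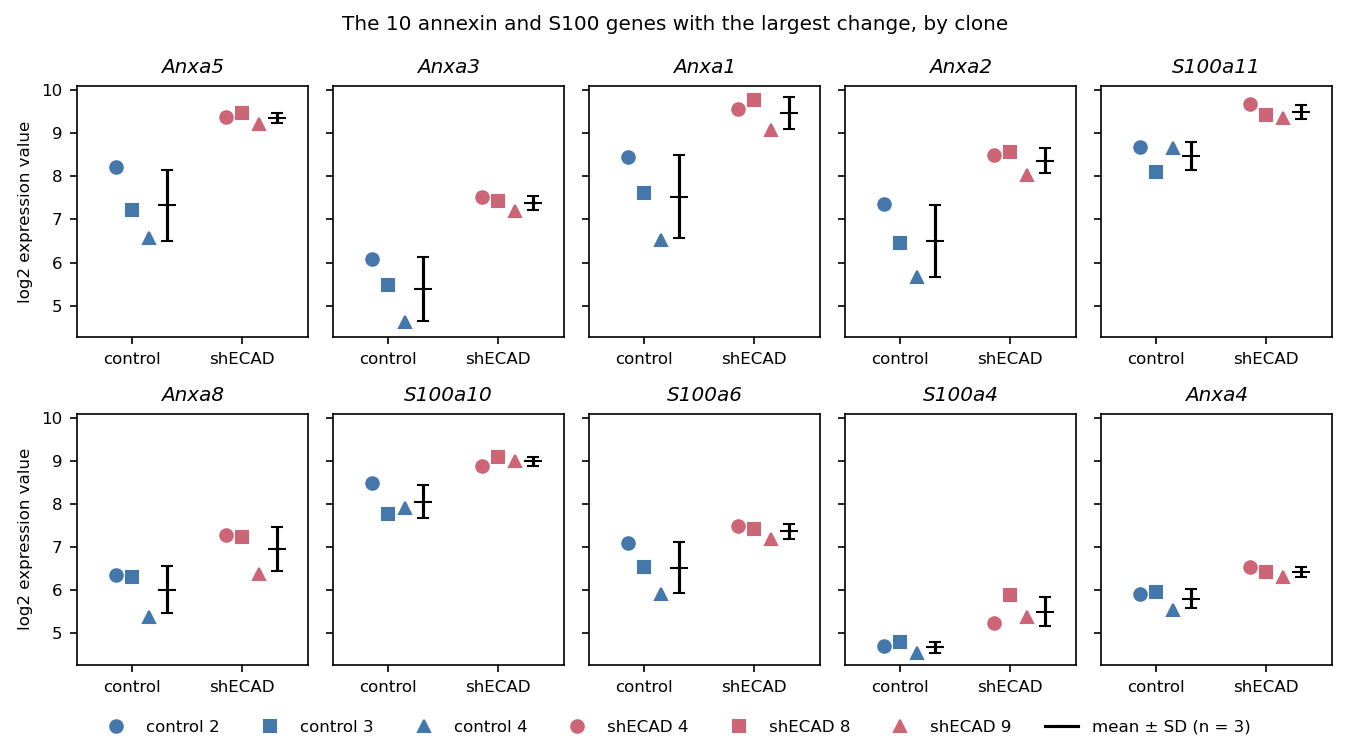
Log2 expression values (y axis) of the 10 genes with the largest change are shown for each clone, with the mean ± SD of 3 clones beside each group. In all 10 genes the 3 shECAD clones lie above the 3 control clones, and in Anxa8 the groups almost touch, at 6.36 and 6.37.

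The control clones differed widely in these annexins, and always in the same order. In Anxa1, Anxa2, Anxa3 and Anxa5, as in Anxa8 and S100a6, control clone 2 was the highest and control clone 4 the lowest. This order was seen in 6 of 30 members (20%) and in 14.5% of all genes. It held in 5 of 12 annexins and 1 of 17 S100 protein genes, and not in the called genes S100a4, S100a10 and S100a11. The SD over control clones was between 0.74 and 0.96 in the 4 annexins, and between 0.12 and 0.36 over shECAD clones. Over all genes the median SD was 0.19 in control and 0.20 in shECAD clones. The mean log2 level of Anxa1, Anxa2, Anxa3 and Anxa5 came to 7.53, 6.69 and 5.85 in the control group and to 8.74, 8.81 and 8.39 in the shECAD group.

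Many markers of fibroblasts, the starting and feeder cells, rose as well. Of 22 measured fibroblast and feeder markers, 13 (59.1%) rose and 0 fell, where 1.9% of all genes rose and 1.23% fell. Like all gene lists here, this one was chosen with earlier results of these data known, so the share is descriptive only. Lum, Dcn and Pdgfra did not pass, at log2 fold changes of -0.23, 0.48 and 0.38 with overlapping groups. The log2 fold change was above 0 in 21 of the 22 markers, and 0 of the 22 were below the 25th percentile of the arrays in both groups. Their mean log2 level came to 6.67, 6.23 and 5.71 in the control group and to 7.22, 7.53 and 7.26 in the shECAD group. The control clones thus stood in the same order as in the annexins, and 18 of the 22 markers had that order on their own. Of 11 markers of simple epithelium, a list without Cdh1, 6 (54.5%) rose and 0 fell. Epcam, Ocln and Cldn3 did not pass, at log2 fold changes of -0.15, 0.087 and 0.54 with overlapping groups. Cldn7 and Krt7 did not pass either, at 0.96 and 0.57 with non-overlapping groups. The mean level of the 11 markers lay between 6.30 and 6.35 in control and between 7.10 and 7.89 in shECAD clones. It did not follow the order 2, 3, 4 among the control clones. The part of fibroblast, feeder or epithelial RNA in the annexin and S100 differences was not tested. In bulk RNA, more cells of a type and more RNA per cell cannot be told apart.

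**Figure D3:**
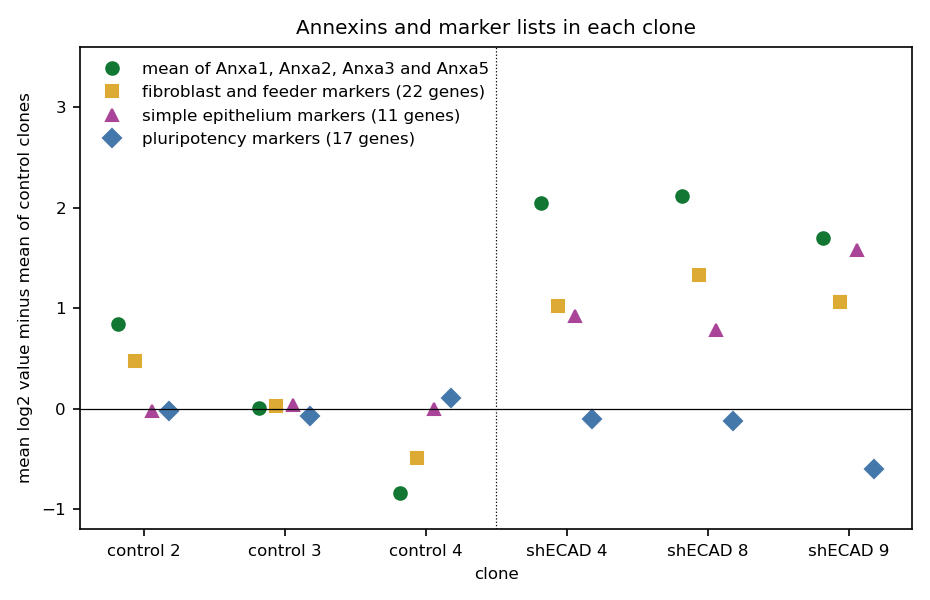
For each clone (x axis), the mean log2 level of Anxa1, Anxa2, Anxa3 and Anxa5 and of 3 marker lists is plotted as its difference from the mean of the control clones (y axis). The annexins stand at 0.84, 0.0031 and -0.84 in control clones 2, 3 and 4, with the fibroblast and feeder markers in the same order, and between 1.70 and 2.12 in the shECAD clones.

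The other annexins did not pass the test. Anxa8, an epithelial annexin, stood at 6.36, 6.30 and 5.38 in the control group and at 7.27, 7.24 and 6.37 in the shECAD group (log2 fold change 0.95 ± 0.30 SE, limma adjusted p = 0.125). Control clone 4 and shECAD clone 9 were each well below the rest of their group. Anxa4, an annexin of secretory epithelia, read 5.91, 5.96 and 5.55 against 6.54, 6.42 and 6.31 (0.62 ± 0.17, limma adjusted p = 0.0777), with no overlap. Of 14 alternative fits, Anxa4 was called in 2, without the genes below the median level (adjusted p = 0.045) and with array weights (0.0269). Anxa8 was called in 1 of them, with array weights (0.0283). With 1 clone left out, the limma adjusted p reached 0.265 for Anxa4 and 0.339 for Anxa8. Anxa7, Anxa9 and Anxa13, the last a gut annexin, differed by 0.26, 0.18 and 0.013 in log2 fold change, with overlapping groups.

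Anxa6 and Anxa11 had log2 fold changes below 0 and did not pass. Anxa6, the annexin with a doubled core, stood at 8.37, 7.90 and 8.30 in the control group and at 7.87, 8.06 and 7.91 in the shECAD group (log2 fold change -0.25 ± 0.17 SE, limma adjusted p = 0.493). A dimmer Anxa6 probeset had a log2 fold change of -0.15. Anxa11, whose long amino-terminal tail tethers RNA granules to lysosomes, read 7.03, 7.44 and 7.54 against 6.80, 6.92 and 7.40 (-0.29 ± 0.20, limma adjusted p = 0.496). In both genes the groups overlapped. The 95% intervals, 0.65 to 1.09 times the control level for Anxa6 and 0.60 to 1.12 times for Anxa11, do not reach the rise of Anxa5. Anxa10 was below the 25th percentile of every array in both groups, at 2.87 to 3.16, and no fold is given.

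Among the S100 genes the rises were about 2-fold or less. S100a11, whose product binds annexin A1, stood at 8.68, 8.10 and 8.66 in the control group and at 9.69, 9.44 and 9.36 in the shECAD group. The groups were 0.68 apart, and the rise was 2.02-fold (95% interval 1.51 to 2.72, log2 fold change 1.02 ± 0.19 SE, limma adjusted p = 0.0255). A second probeset of the same accessions read 8.69, 8.11 and 8.60 against 9.47, 9.34 and 9.27, and with it in place of the first the log2 fold change was 0.90 (limma adjusted p = 0.0308). RefSeq also lists a pseudogene, S100a11-ps, and whether either probeset reads such a copy was not tested. S100a10, the annexin A2 partner, whose EF hands hold the active shape without calcium, stood at 8.50, 7.76 and 7.91 in the control group and at 8.88, 9.09 and 9.00 in the shECAD group. Its rise was 1.91-fold (1.40 to 2.60, log2 fold change 0.93 ± 0.20, limma adjusted p = 0.0364). The rise of Anxa2, 3.65-fold, had an interval from 2.14 to 6.23 that overlaps that of S100a10, and their difference was not tested.

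S100a4, which binds non-muscle myosin and is known as a fibroblast-specific protein, stood at 4.70, 4.80 and 4.53 in the control group and at 5.25, 5.89 and 5.37 in the shECAD group. The rise was 1.77-fold (1.32 to 2.37, log2 fold change 0.83 ± 0.19 SE, limma adjusted p = 0.0467). Its control values were below the median of their arrays, and unlike the 4 called annexins it varied more among shECAD clones (SD 0.34) than among control clones (0.13). The call ended without any 1 of the 6 clones, after median centring (adjusted p = 0.0719) and after quantile normalization (0.0858). S100a10 kept its call only without control clone 2 among the 6 omissions (adjusted p up to 0.142), and S100a11 without control clone 2 or shECAD clone 9 (up to 0.0814 otherwise).

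**Figure D4:**
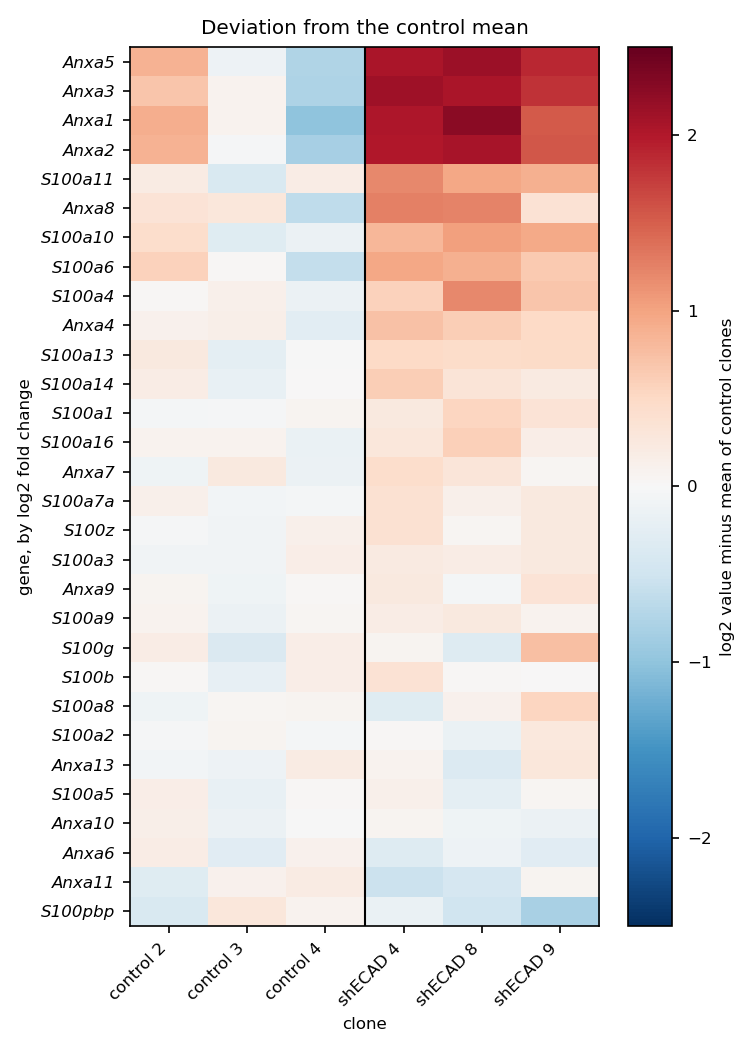
Each cell gives the log2 value of a gene (rows, ordered by log2 fold change) in a clone (columns) minus the mean of the control clones, on a colour scale from -2.5 to 2.5. The strongest colours are in Anxa1, Anxa2, Anxa3 and Anxa5 in the shECAD clones, and control clones 2 and 4 differ in opposite directions in these same rows.

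S100a6, the gene of calcyclin, stood at 7.11, 6.55 and 5.92 in the control group and at 7.50, 7.42 and 7.18 in the shECAD group. It followed the order of the annexins in the control clones, and its groups were 0.076 apart (log2 fold change 0.84 ± 0.26 SE, limma adjusted p = 0.115). Of 14 alternative fits it was called in 2, without control clone 2 (log2 fold change 1.13, adjusted p = 0.0316) and with array weights (0.0458). With 1 clone left out, its log2 fold change ranged from 0.54 to 1.13 (limma adjusted p up to 0.313). In S100a13, which takes part in the export of proteins without a signal peptide, the shECAD clones lay close together at 6.38, 6.34 and 6.35, above control values of 6.13, 5.65 and 5.88 (0.47 ± 0.16, limma adjusted p = 0.156).

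Smaller differences with no overlap were seen in S100a1, S100a3, S100a7a, S100a14 and S100a16, none of which passed. S100a1, known from heart muscle, stood at 4.90, 4.93 and 5.02 in the control group against 5.20, 5.49 and 5.29 in the shECAD group (log2 fold change 0.38, limma adjusted p = 0.224). S100a16, a widely expressed member, read 5.64, 5.64 and 5.39 against 5.83, 6.15 and 5.72 (0.35, adjusted p = 0.32). S100a14, an epithelial member below the 25th percentile of the arrays in both groups, read 3.49, 3.11 and 3.30 against 3.91, 3.62 and 3.52. S100a7a, of the skin, read 4.96, 4.77 and 4.78 against 5.22, 4.96 and 5.08, and S100a3, of the hair follicle, 3.80, 3.80 and 4.06 against 4.11, 4.08 and 4.13. The gaps between the groups were 0.0061 in S100a7a and 0.019 in S100a3, far under the range within either group of S100a7a and the control range of S100a3.

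The S100 genes that mark other cell types were low. S100a8 and S100a9, which encode the calprotectin of neutrophils, read 2.79 to 3.63 and 3.51 to 3.90 over the 6 clones, with overlapping groups. Of 12 myeloid markers 0 were called in either direction. At an unadjusted limma p below 0.05, 1 of the 12 was higher and 1 lower, and of all 19938 genes 1786 and 1809. S100b, the glial member, read 4.19 to 4.74, and S100g, the calbindin of gut and placenta, 4.16 to 5.28, with its highest value in shECAD clone 9. S100a2, S100a5 and S100z read between 3.40 and 4.03. None of these 7 genes passed the test. S100a5, S100a8 and S100z were below the 25th percentile of every array in both groups, and the log2 fold changes of the other 4 ran from 0.036 to 0.17. S100pbp was the member with the lowest log2 fold change. It stood at 7.80, 8.46 and 8.26 in the control group and at 8.01, 7.68 and 7.36 in the shECAD group (-0.49 ± 0.22 SE, limma adjusted p = 0.271), and control clone 2 lay among the shECAD clones.

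Of the 17 S100 protein genes, 14 are on chromosome 3, in a row of 12 and a pair that RefSeq places 56 coding genes further on. S100a11 and S100a10, both called, are that pair and direct neighbours. In the row of 12, from S100a1 to S100a9, S100a4 alone was called. Its neighbours on the chromosome are S100a2, with a log2 fold change of 0.036, and the dim S100a5, which S100a6 follows. The 6 fused-type S100 genes measured, which encode large epidermal proteins, had 0 calls in either direction and a median log2 fold change of 0.055. At an unadjusted limma p below 0.05, 0 of the 6 were higher and 0 lower, and of all 19938 genes 1786 and 1809.

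The 250 bases before the start of each called member are shown where RefSeq (GRCm38.p6) gave them, 5′ to 3′ on the strand of the gene. They are chr19:20390672-20390921 (minus) for Anxa1, chr9:69453433-69453682 (plus) for Anxa2, chr3:36475888-36476137 (minus) for Anxa5, chr3:90603520-90603769 (plus) for S100a4 and chr3:93520246-93520495 (plus) for S100a11. Capitals mark matches on either strand to TGANTCA, the AP-1 motif, and CATTCC, the TEAD motif.
Anxa1: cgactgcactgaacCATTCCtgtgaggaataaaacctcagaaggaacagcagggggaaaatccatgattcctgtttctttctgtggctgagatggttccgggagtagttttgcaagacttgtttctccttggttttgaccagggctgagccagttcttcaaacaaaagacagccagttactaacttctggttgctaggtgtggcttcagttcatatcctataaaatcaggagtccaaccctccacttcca
Anxa2: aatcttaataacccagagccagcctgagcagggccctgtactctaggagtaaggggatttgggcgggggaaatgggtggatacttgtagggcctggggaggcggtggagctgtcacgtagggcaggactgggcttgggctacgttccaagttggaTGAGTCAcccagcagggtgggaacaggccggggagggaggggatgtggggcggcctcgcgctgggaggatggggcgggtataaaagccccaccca
Anxa5: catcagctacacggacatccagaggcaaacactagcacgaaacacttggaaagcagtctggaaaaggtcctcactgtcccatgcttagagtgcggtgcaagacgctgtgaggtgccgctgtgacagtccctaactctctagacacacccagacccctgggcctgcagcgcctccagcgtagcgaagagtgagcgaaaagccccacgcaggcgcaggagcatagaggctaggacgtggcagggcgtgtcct
S100a4: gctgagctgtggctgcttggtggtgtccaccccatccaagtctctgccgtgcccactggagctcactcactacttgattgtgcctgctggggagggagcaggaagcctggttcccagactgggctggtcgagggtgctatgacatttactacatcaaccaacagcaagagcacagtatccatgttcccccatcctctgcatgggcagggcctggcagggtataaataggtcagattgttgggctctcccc
S100a11: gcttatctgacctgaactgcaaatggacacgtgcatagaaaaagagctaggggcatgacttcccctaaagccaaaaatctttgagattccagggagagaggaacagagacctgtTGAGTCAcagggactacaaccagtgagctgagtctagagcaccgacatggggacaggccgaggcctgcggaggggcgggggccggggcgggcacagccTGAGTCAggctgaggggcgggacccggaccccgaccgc

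The AP-1 motif was found in the windows of Anxa2, once, and of S100a11, at 2 places, the latter starting 136 and 38 bases before the start of the gene. Among the first listed windows of 19 members that were not called, 1 (Anxa10) held it, as did 6.75% of all 32851 windows in the table. The TEAD motif was found in Anxa1 alone of the 5 and in 2 of the 19, against 12.64% of all windows. TATAAA was found in Anxa1, Anxa2 and S100a4, starting 32, 17 and 31 bases before the start, and in 2 of the 19, against 12.37%. The motif CACCTG, bound by Snai and Zeb factors, was in 0 of the 5 and 5 of the 19 (17.22% of all windows), and the CArG box of serum response factor in 0 of both (1.47%). GGGCGG was in Anxa2 and S100a11 and in 4 of the 19 (32.74%). Some members that were not called had further windows, which these counts leave out. Those windows added the AP-1 motif in S100a16, the TEAD motif and TATAAA in S100a3, CACCTG in Anxa7 and GGGCGG in S100a3 and S100a16. These are matches of letters in a window of 250 bases, and control of the genes through them was not tested. Of the 30 members, 24 had an entry. Anxa3 and S100a10 are among those without one.

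The proteins that annexins and S100 proteins work with were described by lists of related genes, also chosen with earlier results of these data known. Of 18 measured receptors and partners, 3 (16.7%) rose and 0 fell, where 1.9% of all genes rose and 1.23% fell. The log2 fold change was above 0 in 17 of the 18. Pla2g4a, the cytosolic phospholipase A2 whose access to membranes annexins can limit, stood at 4.94, 5.05 and 4.67 in the control group and at 6.23, 6.19 and 5.46 in the shECAD group (log2 fold change 1.07 ± 0.22 SE, limma adjusted p = 0.0321). Myh9, the non-muscle myosin bound by S100A4, rose by 0.77 (limma adjusted p = 0.0351), and Dysf, the membrane repair protein dysferlin, by 0.74 (0.035). With 1 clone left out, Pla2g4a and Dysf kept their calls only without shECAD clone 9 and Myh9 only without control clone 2 (adjusted p otherwise up to 0.129, 0.121 and 0.15). Pla2g4a also lost its call after quantile normalization (0.0562) and Dysf after median centring (0.0558). Averaging its probesets took Myh9 to 0.44 (adjusted p = 0.178). Chosen after their values were seen, Ahnak, a large scaffold bound by S100A10, and Cacybp, the calcyclin-binding protein, did not pass, at log2 fold changes of 0.85 and -0.14. Myof, picked in the same way, had the largest change of the list and did not pass (1.46, non-overlapping groups, limma adjusted p = 0.112).

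In the plasminogen system, which annexin A2 and S100A10 bind at the cell surface, 0 of 8 measured genes passed in either direction. At an unadjusted limma p below 0.05, 4 of the 8 were higher and 0 lower, and of all 19938 genes 1786 and 1809. Plat, the tissue plasminogen activator, stood at 5.80, 5.09 and 4.40 in the control group and at 6.00, 6.55 and 6.26 in the shECAD group (log2 fold change 1.17 ± 0.30 SE, limma adjusted p = 0.068). Plaur, the urokinase receptor, read 7.01, 6.06 and 5.72 against 7.71, 7.31 and 7.26 (1.16 ± 0.29, adjusted p = 0.0609), and Lrp1, an endocytic receptor that clears the activators, 7.79, 7.34 and 6.83 against 8.32, 8.42 and 8.09 (0.96 ± 0.23, adjusted p = 0.0534). All 3 genes had non-overlapping groups and the control order 2, 3, 4 of the annexins. With array weights 4 of the 8 were called higher, as were 644 of all genes. Without control clone 2 it was also 4, and 378 of all genes. Leaving out any other clone gave 0 calls among the 8, as did median centring, averaging probesets, testing every probeset and no variance moderation.

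Among 31 other EF-hand genes, 3 (9.68%) rose and 0 fell, where 1.9% of all genes rose and 1.23% fell. The median log2 fold change of the 31 was 0.14. Capn2, the large subunit of m-calpain, a calcium-activated protease, stood at 7.08, 6.23 and 6.01 in the control group and at 8.00, 8.06 and 7.60 in the shECAD group (log2 fold change 1.45 ± 0.26 SE, limma adjusted p = 0.0209). The reticulocalbin genes Rcn3 and Rcn2, which encode EF-hand proteins of the secretory pathway, rose by 1.01 and 0.68 (limma adjusted p = 0.0307 and 0.0493). With 1 clone left out, Capn2 kept its call only without control clone 2 or shECAD clone 9, Rcn3 only without control clone 3 and Rcn2 only without shECAD clone 9 (adjusted p otherwise up to 0.0775, 0.102 and 0.162). Rcn2 also lost it after median centring (0.088).

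**Figure D5:**
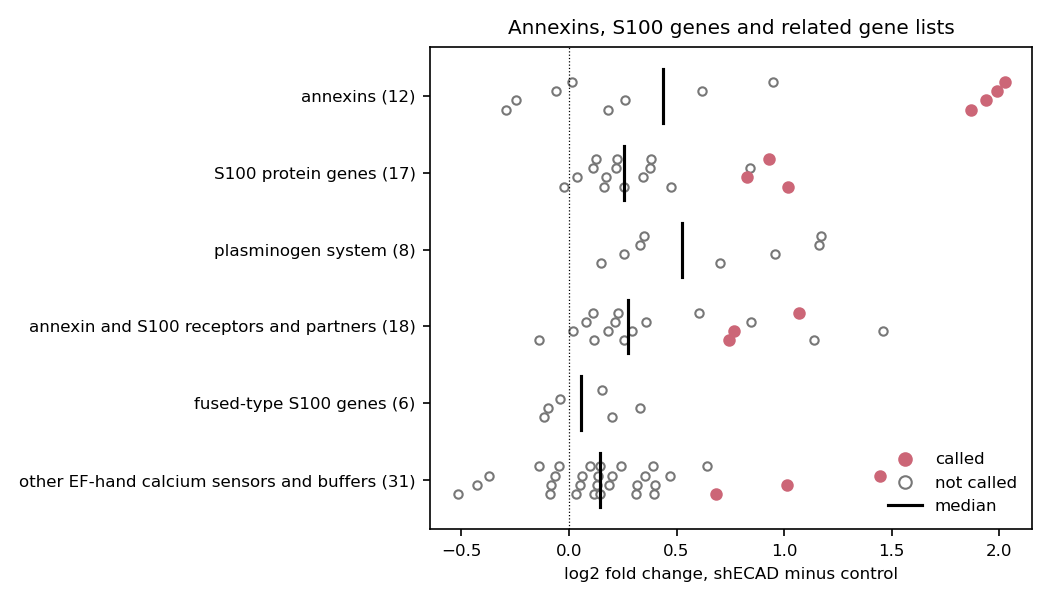
Each point is the log2 fold change (x axis, shECAD minus control) of 1 gene of the annexins, the S100 protein genes or 4 related lists (rows, with the number of measured genes), filled where the adjusted p is below 0.05, and bars are medians. The medians run from 0.055 for the fused-type S100 genes to 0.53 for the plasminogen system, and Anxa1, Anxa2, Anxa3 and Anxa5 lie furthest to the right.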

How the data were processed

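Total RNA of 6 cloned cell lines was hybridised to whole-transcript arrays, from 100 ng each, per the labels' protocols. The submitters' processing notes name RMA and Partek for the log2 expression values that the authors deposited. Software versions and the build were not given in the sources used here. All values entered as deposited. Of 28853 probesets, 21789 had 1 gene symbol in the platform annotation, 1621 had several and 5443 none there. Each gene was read from its brightest probeset (mean of all arrays), with no filter. A limma 3.58.1 fit (lmFit, eBayes, R 4.3.3) of both groups covered 19938 genes, with Benjamini-Hochberg adjustment; genes with an adjusted p below 0.05 were called. The fit was tested on simulated data with noise independent between genes, which does not check for variation that genes share within a clone. SD and SE are on the log2 scale, and the number of arrays limits the precision. The text gives no fold for members with both group means below the 25th percentile of every array; the plots show them.

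The members and all gene lists were chosen with earlier results of these data known. Values by clone are given for called members, the 10 largest changes and members whose groups do not overlap, and, chosen after their values were seen, for Anxa6, Anxa11 and S100pbp. In each list they are given for up to 5 called genes or else the 3 largest changes, some by fold change alone. Alternatives were other scalings, filters, probeset choices, variance priors, array weights, a threshold of 0.1 and leaving out each clone. Promoter windows came from RefSeq (GRCm38.p6). Figures used matplotlib 3.10.9.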

Additional observations from a re-analysis of the deposited data

How the results depend on the processing

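The 16 members with non-overlapping groups kept their direction under every alternative run on them. Where groups do not overlap, omitting a clone, filtering genes, testing every probeset, array weights or another prior cannot reverse the direction. Calls, however, were lost. The members called were 6 after median centring or quantile normalization, 2 (Anxa3 and Anxa5, with 0 S100 genes) when every probeset was tested, and 0 annexins and 0 S100 genes without variance moderation, where Cdh1 (-2.13) had an adjusted p of 0.194. With 1 clone left out they ranged from 1 (Anxa3, without shECAD clone 8) to 7, the annexins from 1 to 4, the S100 genes from 0 to 3 and the log2 fold change of Cdh1 from -2.45 to -1.92. Over all genes, 623 calls (378 higher, 245 lower) became 680 after median centring (303 higher, 377 lower), 241 over every probeset (153 and 88), 3 without moderation (1 and 2), 1067 with array weights (644 and 423) and 1278 at an adjusted p below 0.1 (709 and 569). The lower calls became 402 among genes at or above the median level and 374 with an intensity trend and a robust prior. With 1 clone left out there were 146 to 543 calls, 80 to 378 higher and 49 to 165 lower.

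The median log2 fold change of the annexins (0.44) became 0.95 and that of the S100 genes (0.25) 0.84 among genes at or above the median level, where fewer members were tested. The S100 median became 0.15 after quantile normalization. With 1 clone left out the medians ranged from 0.34 to 0.54 and from 0.22 to 0.32. Plasminogen genes called higher, 0 in the fit described, numbered 1 after quantile normalization, 2 among brighter genes, 1 with an intensity trend, 4 with array weights, 4 at an adjusted p below 0.1, and 0 to 4 with 1 clone left out. The 3 receptors and partners became 5 among brighter genes, 0 over every probeset, 0 without moderation, 7 with array weights, 6 at 0.1, and 0 to 3 with 1 clone left out. The 3 other EF-hand genes became 0 over every probeset, 0 without moderation, and 0 to 2 with 1 clone left out, and 1 was called lower with an intensity trend. Flg2, a fused-type gene that was not called and whose group means were below the 25th percentile of every array, ranged from -0.056 (without control clone 3) to 0.30 with 1 clone left out. Apart from the smaller number of genes tested among brighter genes and the fewer clones, the cause was not tested. No paired analysis was possible because the groups share 1 clone number.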

Other observations

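Calpains are proteases that calcium activates, made of a large subunit and the common small subunit Capns1. Beside the rise of Capn2, the other classical large subunit Capn1 stood at 6.52, 6.75 and 6.78 in the control group and at 6.39, 6.24 and 6.15 in the shECAD group (log2 fold change -0.43 ± 0.15 SE, limma adjusted p = 0.176). Capns1 read 10.94, 10.42 and 10.68 against 10.26, 10.20 and 10.02 (-0.52 ± 0.17, limma adjusted p = 0.144). In both genes every shECAD clone lay below every control clone, and neither passed the test. Both were picked after their values were seen. Cib1, a small EF-hand protein that binds integrins, had the same arrangement (-0.37 ± 0.16, limma adjusted p = 0.265). Of the 31 other EF-hand genes these 3 had it, a share below the 12.5% of all genes. The reverse arrangement was seen in 9 of the 31 (29%) and in 11.1% of all genes.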
